A study of Arabidopsis thaliana with 4 samples.

Results

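The hypoxia response genes of Arabidopsis thaliana described here are 10 genes that plants are known to induce when oxygen runs short. They are HB1, PCO1, PCO2, ADH1, PDC1, PDC2, SUS1, SUS4, LBD41 and HRA1, found by locus identifier among the 33414 loci named in the authors' gene table. For 9 of them the table holds an entry of their own, and LBD41 is present only in an entry that also holds the neighbouring gene RAD23C. They were measured by RNA sequencing of whole etiolated (dark-grown) seedlings in 4 libraries, 2 from seedlings given ethylene and 2 from seedlings kept in air. Ethylene is a gaseous plant hormone, and the comparison asks which transcripts differ after a short exposure to it.

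The ethylene group was srt1srt2 seedlings, grown at 24 °C in darkness for 3 days and then held for 4 hours in 10 ppm ethylene mixed into hydrocarbon-free air. The air group was the same srt1srt2 mutant, grown the same way and held for 4 hours in hydrocarbon-free air alone. Both groups therefore carry the mutations in SRT1 and SRT2, which encode sirtuins, a class of protein deacetylases, in the Col background. Wild-type seedlings were not analysed here, so whether any value below belongs to the mutant was not tested. The labels name no shortage of oxygen in either group.

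In plants, low oxygen is sensed through the stability of group VII ethylene response factors (ERFs), transcription factors whose amino-terminal cysteine is oxidised by plant cysteine oxidases (PCOs) when oxygen is plentiful. The oxidised factors are marked by arginine and degraded by the N-degron pathway; without oxygen they persist and switch on genes for fermentation, for sucrose breakdown and for feedback on the response itself. Degradation also depends on nitric oxide, which the haemoglobin HB1 removes, and ethylene trapped around submerged Arabidopsis is known to raise HB1 before oxygen falls.

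The promoters of the members on which the results turn are printed first: HB1 and PCO1, which were called higher in ethylene, PCO2 and PDC1, which came next in size, and ADH1, the fermentation gene whose value hardly moved. Each sequence covers 250 bases before and 30 bases from the gene start annotated by RefSeq on TAIR10.1, read 5′ to 3′ on the gene's strand. Capitals mark AAACCA on either strand, the letters at the core of the anaerobic response element first described in maize. The windows are chr2:6983748-6984027 (minus strand) for HB1, chr5:4898391-4898670 (plus strand) for PCO1, chr5:15974020-15974299 (plus strand) for PCO2, chr1:28975005-28975284 (plus strand) for ADH1 and chr4:15954774-15955053 (minus strand) for PDC1.
HB1: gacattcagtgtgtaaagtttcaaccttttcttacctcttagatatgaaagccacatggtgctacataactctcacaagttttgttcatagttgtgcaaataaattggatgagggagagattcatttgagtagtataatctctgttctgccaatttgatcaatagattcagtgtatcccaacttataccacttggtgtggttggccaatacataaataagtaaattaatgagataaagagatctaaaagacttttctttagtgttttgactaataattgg
PCO1: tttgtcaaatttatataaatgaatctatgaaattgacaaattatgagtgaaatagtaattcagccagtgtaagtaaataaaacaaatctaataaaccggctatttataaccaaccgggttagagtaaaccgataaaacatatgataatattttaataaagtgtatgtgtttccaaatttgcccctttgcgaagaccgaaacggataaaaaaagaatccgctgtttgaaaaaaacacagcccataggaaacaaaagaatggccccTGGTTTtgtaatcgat
PCO2: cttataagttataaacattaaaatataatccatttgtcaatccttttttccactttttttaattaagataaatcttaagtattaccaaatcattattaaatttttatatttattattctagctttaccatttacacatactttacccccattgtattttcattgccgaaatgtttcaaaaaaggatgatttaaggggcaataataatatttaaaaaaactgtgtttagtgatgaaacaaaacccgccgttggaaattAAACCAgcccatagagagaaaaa
ADH1: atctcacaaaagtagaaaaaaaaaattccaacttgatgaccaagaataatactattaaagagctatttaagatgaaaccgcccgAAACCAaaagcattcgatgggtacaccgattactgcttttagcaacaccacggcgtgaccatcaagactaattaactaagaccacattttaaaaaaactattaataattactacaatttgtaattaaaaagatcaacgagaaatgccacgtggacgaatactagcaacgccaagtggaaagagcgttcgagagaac
PDC1: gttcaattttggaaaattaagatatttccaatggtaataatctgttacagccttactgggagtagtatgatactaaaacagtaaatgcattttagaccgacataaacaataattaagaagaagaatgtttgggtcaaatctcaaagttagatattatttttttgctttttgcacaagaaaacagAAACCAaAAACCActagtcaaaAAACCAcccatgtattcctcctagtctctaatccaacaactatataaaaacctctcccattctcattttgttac

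Among these promoters, that of PDC1 held 3 copies of AAACCA, starting 66, 59 and 44 bases upstream of the gene start. ADH1 held 1 copy starting 166 bases upstream, PCO2 held 1 at base 8 downstream, and PCO1 held 1 on the reverse strand at base 15 downstream. The window of HB1 held none, although HB1 showed the largest change of the 9 genes with an entry of their own. Counting SUS1, 5 of the 10 windows held AAACCA, against 30.2% of 27443 promoters of the same length. The longer hypoxia-responsive promoter element, a motif bound by group VII ERFs in Arabidopsis, was matched in PCO1 alone, on the reverse strand with its first base at 10, where it overlaps the AAACCA match. That element was matched in 0.051% of all promoters.

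Motifs linked to ethylene signalling were searched on both strands in the same windows. TACAT, the core of sites bound by the ethylene regulator EIN3, was in 3 of 10 windows, those of HB1, PDC1 and SUS1, against 54.7% of all promoters. HB1 held it at 188 and 42 bases upstream. GCCGCC, the core bound by many ERFs, was in the window of PDC2 alone among the members and in 2.25% of all promoters. CACGTG, the G-box, was in the windows of ADH1, PDC2 and LBD41, against 7.24% of all promoters. A match describes these letters in this window and does not show a bound site. For the 5 printed genes the authors' entries start between 32 and 146 bases downstream of the annotated start.

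Levels below are FPKM, counts of sequenced fragments divided by transcript length and by the size of the library, so that levels of different genes can be compared per length. The authors pooled the 2 libraries of each condition into 1 FPKM value, and no spread between libraries can be given. Genes are called here at a q (a p-value adjusted for all tested entries) of 0.05 or less in the authors' deposited table. Fold changes are ethylene FPKM over air FPKM, and plain log2 ratios carry a standard error (SE) computed as the ratio divided by the deposited test statistic. The 95% intervals of folds come from the same SE, not from a spread between libraries seen here. The deposited p is on another scale, as described with the processing below, so these intervals do not restate the deposited test. List medians are of log2((ethylene FPKM + 1)/(air FPKM + 1)), a scale that understates the change of low genes. In whole seedlings, fewer cells of a type and less RNA per cell cannot be told apart.

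Markers of the tissue were checked first. Across all tested entries that name a gene, 4.79% were called higher and 6.5% lower. PORA, PORB and PIF3, taken here as markers of dark-grown seedlings, were expressed and called higher in ethylene in 3 of 3 cases. Their summed level was 1699 FPKM in ethylene and 1149 FPKM in air. Root hair markers were called higher in 5 of 6 cases, with a summed level of 119 FPKM in ethylene and 62.6 FPKM in air and none at 0. When the deposited statistic was read against a standard normal curve and adjusted, fewer were called. The counts were then 3 of the 6 root hair and 1 of the 3 dark-grown markers. Seed markers summed to 718 FPKM in ethylene and 1076 FPKM in air, with 2 of 7 called higher and 3 lower, and none was at 0. Leaf photosynthesis markers summed to 7134 FPKM in ethylene and 7227 FPKM in air, with 1 of 3 called lower. Their sum exceeded that of the dark-grown markers in both conditions, so these levels do not check growth in darkness. The known ethylene-induced genes ETR2, ERS2, EBF2, CTR1 and ERF1 were called higher in 5 of 5 cases, summing to 388 FPKM in ethylene and 144 FPKM in air. ERF1 stood at 9.07 FPKM in ethylene and was listed at 0 in air. SRT1 stood at 3.23 FPKM in ethylene and 3.88 FPKM in air, and SRT2 at 2.09 FPKM in ethylene and 1.92 FPKM in air, neither called. Without wild type these levels do not check the genotype.

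Of the 9 hypoxia response genes with an entry of their own, 2 were called higher in ethylene, HB1 and PCO1, and 0 were called lower. Across the 20786 tested entries that name a gene, 11.3% were called, 4.79% as higher and 6.5% as lower. Among these 9 genes 22.2% were called, and with so few members 1 gene moves that share by much. Values were higher in ethylene for 8 of the 9, against 10610 of the 20786 tested entries. The 8 include ADH1 and SUS4, whose values hardly differed. The median log2 change of the 9 was 0.37, against 0.01 over all tested entries. All 10 entries passed the authors' own limit for testing. When the statistic was read against a standard normal curve and adjusted over the entries with a numeric statistic, 1 of the 9 genes (HB1) was called, beside 5.84% of the 20565 such entries that name a gene.

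**Figure D1:**
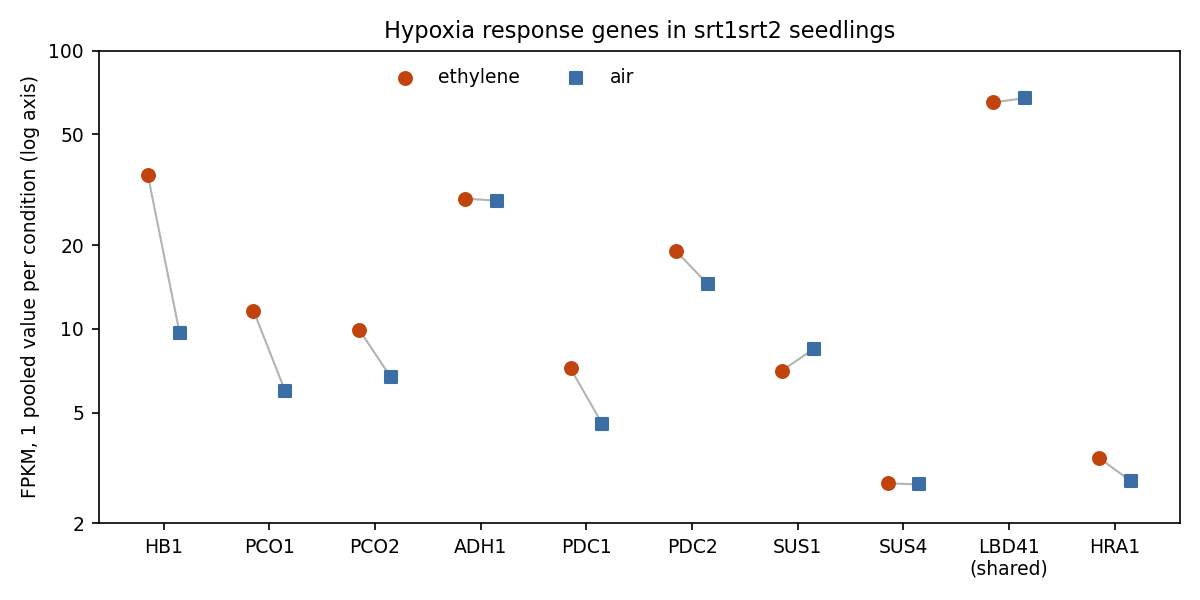
Level of each of the 10 hypoxia response genes in FPKM on a log axis, with ethylene as circles and air as squares, 1 pooled value per condition and no error bars because values of separate libraries were not used. HB1 shows the widest gap, 35.8 FPKM in ethylene against 9.70 FPKM in air, while ADH1 and SUS4 show almost none, and the pair at LBD41 is the level of an entry shared with RAD23C.

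HB1 (AT2G16060, chromosome 2, 6982531 to 6983631 in the table's TAIR10 coordinates) encodes a class 1 haemoglobin that binds oxygen very tightly and removes nitric oxide. Its level was 35.8 FPKM in ethylene and 9.70 FPKM in air. The rise was 3.69-fold, a log2 ratio of 1.88 ± 0.35 (SE), with a 95% interval of 2.29-fold to 5.95-fold. In the authors' deposited table its p was 5e-05, the smallest that table gives, and its q was 0.000878. HB1 was the 262nd largest rise of 20786 entries. The call held when the statistic was read against a normal curve.

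Neither of the other haemoglobins was called higher. HB2, a class 2 haemoglobin, was 12.8 FPKM in ethylene and 21.3 FPKM in air, 1.66-fold lower in ethylene (log2 ratio -0.73 ± 0.33), with q 0.0243 in the authors' deposited table. GLB3, a truncated haemoglobin, was 12.8 FPKM in ethylene and 13.4 FPKM in air and was not called. HB1 therefore made up 58.3% of the summed haemoglobin level in ethylene against 21.8% in air, and HB2 20.9% in ethylene against 48.0% in air. The coding sequences of HB1 and HB2 are 62.7% identical, with a longest identical run of 12 bases, and those of HB1 and GLB3 57.3%. GSNOR, the reductase that breaks down the nitric oxide store S-nitrosoglutathione, was 266 FPKM in ethylene and 273 FPKM in air, not called. The call of HB2 was lost with the normal reference (adjusted p 0.268 after Benjamini-Hochberg adjustment of values from the authors' deposited table). Root hair markers moved in the same direction as HB1, as given above, and their part in its rise was not tested.

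PCO1 and PCO2, the cysteine oxidases that are themselves induced by hypoxia, formed the second group. PCO1 (AT5G15120, chromosome 5, 4898737 to 4900581) was 11.6 FPKM in ethylene and 5.97 FPKM in air, a rise of 1.95-fold (log2 ratio 0.96 ± 0.37). Its 95% interval was 1.18-fold to 3.23-fold, and q in the authors' deposited table was 0.00429. With the normal reference PCO1 was no longer called: the Benjamini-Hochberg adjusted p from the authors' deposited table's statistic was 0.128. PCO2 (AT5G39890, chromosome 5, 15974393 to 15976270) was 9.93 FPKM in ethylene and 6.69 FPKM in air, 1.48-fold with an interval of 0.909-fold to 2.42-fold. It was not called, at q 0.165 in the authors' deposited table, where its unadjusted p was 0.0291. The difference between the responses of PCO1 and PCO2 was not tested.

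The other 3 cysteine oxidases, PCO3, PCO4 and PCO5, are expressed whether or not oxygen is short and were not called. PCO5 was the highest of the family at 24.6 FPKM in ethylene and 22.9 FPKM in air. PCO4 was 11.3 FPKM in ethylene and 11.1 FPKM in air, and the entry that PCO3 shares with another locus was 6.03 FPKM in ethylene and 7.30 FPKM in air. PCO1 and PCO2 together held 33.95% of the summed PCO level in ethylene and 23.5% in air.

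Fermentation genes came next, and none of the 3 was called. PDC1 (AT4G33070, chromosome 4, 15952289 to 15954771), a pyruvate decarboxylase that makes acetaldehyde from pyruvate, was 7.20 FPKM in ethylene and 4.55 FPKM in air. Its ratio was 1.58-fold with a 95% interval of 1.004-fold to 2.50-fold, and its q of 0.0508 in the authors' deposited table lay just above the threshold. Adjusting the deposited p only over entries at 1 FPKM or more gave 0.0486, so the call of PDC1 depends on which entries enter the adjustment. PDC2 (AT5G54960, chromosome 5, 22310687 to 22312761), a second pyruvate decarboxylase, was 19.0 FPKM in ethylene and 14.5 FPKM in air, 1.32-fold with an interval of 0.930-fold to 1.86-fold. Its q in the authors' deposited table was 0.167 and its unadjusted p there was 0.0294.

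ADH1 (AT1G77120, chromosome 1, 28975394 to 28978755), the alcohol dehydrogenase that turns acetaldehyde into ethanol, was 29.4 FPKM in ethylene and 28.9 FPKM in air. The ratio of 1.02-fold had a 95% interval of 0.705-fold to 1.47-fold, and q in the authors' deposited table was 0.971. A rise of ADH1 as large as that of HB1 lies outside this interval. The span of ADH1 is shared with the locus AT1G77122, whose own entry was 11.4 FPKM in ethylene and 10.2 FPKM in air. Whether counting used the strand is not given in the sources used here, so fragments of the 2 loci may not be fully separated.

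PDC3 and PDC4, which share an entry, were 15.2 FPKM in ethylene and 23.8 FPKM in air (log2 ratio -0.65 ± 0.25), with q 0.00366 in the authors' deposited table. They were therefore called lower while PDC1 and PDC2 had higher values without a call, and the summed level of the 4 genes was 41.4 FPKM in ethylene and 42.8 FPKM in air. PDC1 and PDC2 held 63.4% of that sum in ethylene and 44.4% in air. PDC3 and PDC4 are 93.2% identical in coding sequence, with an identical run of 194 bases, whereas PDC1 and PDC2 are 75.6% identical with a longest run of 20 bases. The call of PDC3 and PDC4 was lost with the normal reference, at an adjusted p of 0.117 from the statistic of the authors' deposited table.

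Genes at the side branches of fermentation gave 1 call in 6 (16.7%, against 11.3% of all tested entries). ALAAT1, an alanine aminotransferase that diverts pyruvate into alanine during hypoxia, was 88.4 FPKM in ethylene and 62.9 FPKM in air, 1.41-fold, with q 0.0108 in the authors' deposited table and 0.211 with the normal reference. ALAAT2, its close relative, was 14.2 FPKM in ethylene and 11.6 FPKM in air, not called. Lactate dehydrogenase (LDH) was 20.9 FPKM in ethylene and 18.4 FPKM in air, also not called. The aldehyde dehydrogenases ALDH2B4 and ALDH2B7, which oxidise acetaldehyde, were 135 and 58.7 FPKM in ethylene and 142 and 61.4 FPKM in air. Pyruvate orthophosphate dikinase (PPDK) was 54.3 FPKM in ethylene and 47.0 FPKM in air, and none of these 3 was called.

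**Figure D2:**
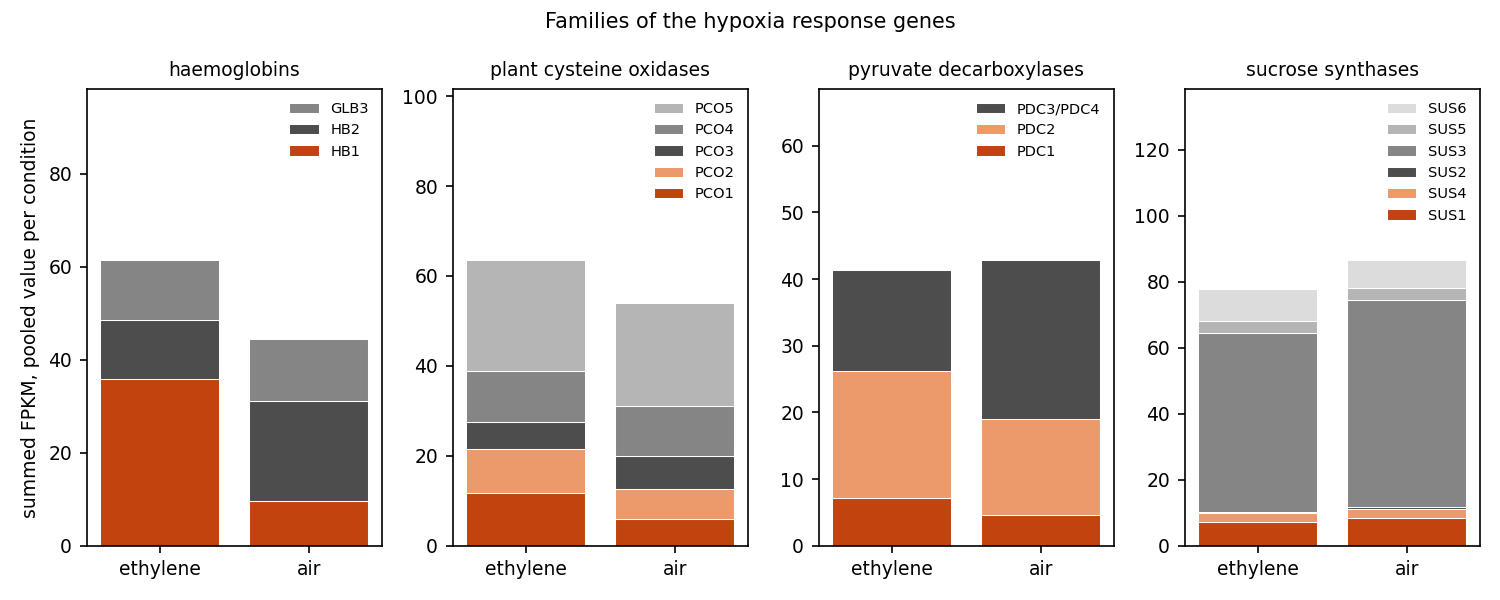
Summed FPKM of 4 families in ethylene (left bar) and air (right bar), split by gene, with the hypoxia response genes in orange and their paralogues in grey, 1 pooled value per condition and no error bars. HB1 takes 58.3% of the haemoglobin sum in ethylene against 21.8% in air, and SUS3 dominates the sucrose synthases in both conditions.

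Sucrose synthases cleave sucrose into UDP-glucose and fructose, a route that spends less ATP than invertase and feeds glycolysis under low oxygen. SUS1 (AT5G20830, chromosome 5, 7050226 to 7055195) was 7.07 FPKM in ethylene and 8.46 FPKM in air, a ratio of 0.835 with a 95% interval of 0.569 to 1.23. SUS4 (AT3G43190, chromosome 3, 15179020 to 15183989) was 2.78 FPKM in ethylene and 2.76 FPKM in air, a ratio of 1.01 with an interval of 0.545 to 1.87. Neither was called, with q 0.523 for SUS1 and 0.989 for SUS4 in the authors' deposited table. The coding sequences of these 2 genes are 84.3% identical, with a longest identical run of 38 bases, so part of their fragments may be hard to assign.

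SUS3, which is not a hypoxia marker, was the main sucrose synthase at 54.1 FPKM in ethylene and 62.9 FPKM in air, and it was not called. SUS1 and SUS4 together held 12.6% of the family sum in ethylene and 13.0% in air. SUS5 and SUS6 were 3.76 and 9.73 FPKM in ethylene and 3.34 and 8.55 FPKM in air, without a call. SUS2 was too low to be tested, at 0.442 FPKM in ethylene and 0.445 FPKM in air.

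Of the transcription factors among the members, HRA1 was low and LBD41 could not be read. HRA1 (AT3G10040, chromosome 3, 3096415 to 3098071), a trihelix factor known to restrain the group VII ERF RAP2.12, was 3.43 FPKM in ethylene and 2.84 FPKM in air. Its ratio was 1.21-fold with a 95% interval of 0.641-fold to 2.29-fold, and it was not called (q 0.736 in the authors' deposited table). LBD41 (AT3G02550), a LOB-domain factor, shares its entry with RAD23C, a ubiquitin receptor of the proteasome route. That entry (chromosome 3, 532808 to 537998) was 65.2 FPKM in ethylene and 67.6 FPKM in air, and LBD41's own level cannot be read from it.

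Relatives of LBD41 in the same class of LOB-domain factors were readable. LBD40 was 17.0 FPKM in ethylene and 6.78 FPKM in air, 2.50-fold higher (log2 ratio 1.32 ± 0.38), with q 0.000878 in the authors' deposited table and 0.0106 with the normal reference. LBD38, a regulator of nitrogen responses, was 72.9 FPKM in ethylene and 49.7 FPKM in air, 1.47-fold, with q 0.00982 in the authors' deposited table and 0.204 with the normal reference. LBD37 at 101 FPKM in ethylene and 108 FPKM in air, and LBD39 at 28.1 FPKM in ethylene and 29.0 FPKM in air, were not called. LBD42 was listed at 0 in both conditions. Over all the paralogues of members, 2 of 11 tested entries were called higher and 2 lower, which is 36.4% against 11.3% of all tested entries. With the normal reference 1 was called, LBD40, beside 5.84% of all entries with a numeric statistic that name a gene.

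Ordered by level, the members with an entry of their own ran in ethylene as HB1, ADH1, PDC2, PCO1, PCO2, PDC1, SUS1, HRA1 and SUS4. In air the order was ADH1, PDC2, HB1, SUS1, PCO2, PCO1, PDC1, HRA1 and SUS4. HB1 was thus the highest in ethylene and the third in air, and HRA1 and SUS4 were the lowest in both. Without values of separate libraries, neighbours in these orders cannot be told apart.

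Upstream of the members stand the group VII ERFs. RAP2.3 was 316 FPKM in ethylene and 65.9 FPKM in air, a 4.79-fold rise (log2 ratio 2.26 ± 0.21). RAP2.2 was 432 FPKM in ethylene and 195 FPKM in air, a 2.21-fold rise (1.14 ± 0.21 on the log2 scale). Both had q 0.000878 in the authors' deposited table and were called with the normal reference too. RAP2.12, the third of the factors that are made while oxygen is plentiful, was 237 FPKM in ethylene and 226 FPKM in air and was not called.

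HRE1, one of the pair of group VII ERFs that hypoxia induces, was 2.21 FPKM in ethylene and 0.600 FPKM in air, not called (q 0.771 in the authors' deposited table). HRE2 was too low to be tested, at 0.205 FPKM in ethylene and 0.439 FPKM in air. The summed level of the 5 factors was 987 FPKM in ethylene and 488 FPKM in air, 2.02-fold. RNA levels do not show the protein, whose stability is what oxygen is known to control.

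Of 9 tested genes listed for the N-degron pathway that degrades these factors and for its partners, 0 were called, by the deposited q or with the normal reference. This list leaves out PCO1, which was called higher by the deposited q, and PCO2, both given above as members. Of the 9 genes, 0 had an unadjusted p of 0.05 or less in the authors' deposited table. With 11.3% of all tested entries called, 0 calls among 9 genes does not set this list apart. The median log2 change of the 9 was 0.02. PRT6, the ubiquitin ligase that recognises arginylated substrates, was 24.3 FPKM in ethylene and 24.8 FPKM in air. The arginyl transferases ATE1 and ATE2 were 14.8 and 7.98 FPKM in ethylene and 17.1 and 8.41 FPKM in air. The acyl-CoA-binding proteins ACBP1 and ACBP2, which hold RAP2.12 at membranes, were 16.4 and 24.3 FPKM in ethylene and 12.4 and 23.2 FPKM in air. VRN2, a Polycomb subunit degraded by the same pathway, was 16.2 FPKM in ethylene and 14.96 FPKM in air. ZPR2, another substrate, was listed at 0 in both conditions.

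**Figure D3:**
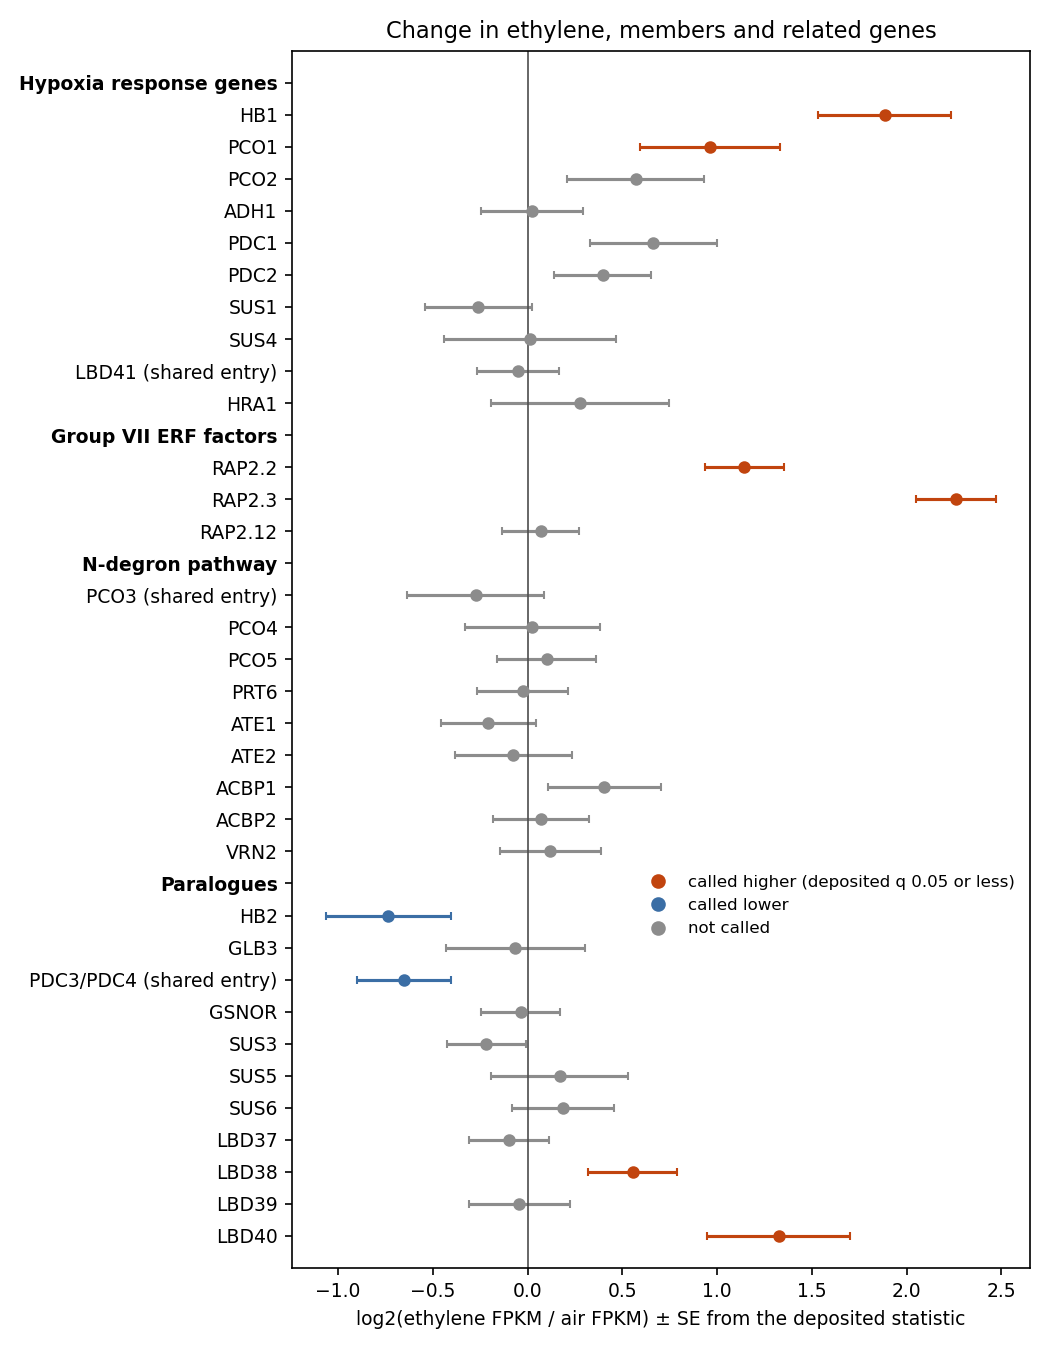
Plain log2 ratio of ethylene to air FPKM with ± 1 SE from the deposited statistic, for the 10 members, the group VII ERFs, the N-degron pathway and the paralogues that were tested, with called genes coloured and HRE1 left out for its wide error. HB1, PCO1, RAP2.2, RAP2.3, LBD38 and LBD40 were called higher, and HB2 and PDC3/PDC4 were called lower. No gene of the N-degron list, which leaves out PCO1 and PCO2, was called.

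A further list of 35 genes known to be induced by hypoxia in Arabidopsis was examined beside the members, of which 32 were tested. Of these, 7 were called higher and 1 lower, which is 25% of those tested against 11.3% of all entries. The median log2 change was 0.35, and 21 of 32 values were higher in ethylene, against 10610 of all 20786 tested entries that name a gene. ETR2 and ACO1 in this list are also well-known ethylene-induced genes; without them 5 of 30 were called higher and 1 lower. With the normal reference 5 of the list were called, ETR2 and ACO1 among them, and 3 without them. That reference called 5.84% of all entries with a numeric statistic that name a gene. NIP2;1, a channel gene of this list, lacks a numeric statistic and was left out of these counts.

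The called genes of this list include both ethylene genes. ETR2, an ethylene receptor, was 45.7 FPKM in ethylene and 7.90 FPKM in air, 5.78-fold. ACO1 (AT2G19590), an enzyme of the last step of ethylene synthesis, was 25.7 FPKM in ethylene and 7.16 FPKM in air, 3.59-fold, in its higher entry. Its lower entry was 0.346 FPKM in ethylene and 0.814 FPKM in air, not called (q 0.712 in the authors' deposited table). AT1G19530, a gene of unknown function that is among the usual hypoxia markers, was 446 FPKM in ethylene and 111 FPKM in air, 4.04-fold. ETR2, AT1G19530 and the higher entry of ACO1 each had q 0.000878 in the authors' deposited table.

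The other called genes moved by less. AT1G26270, of the phosphatidylinositol kinase family, was 91.9 FPKM in ethylene and 42.6 FPKM in air, 2.16-fold. AT5G47060 and AT1G74940, which carry the same domain of unknown function, were 104 and 27.0 FPKM in ethylene and 62.9 and 18.3 FPKM in air. The entry that AT2G15880 shares with AT2G15890 was 151 FPKM in ethylene and 109 FPKM in air. AT3G03270, also called HRU1, a universal stress protein that interacts with the oxidase that makes reactive oxygen at the membrane, was the 1 called lower, at 61.3 FPKM in ethylene and 88.7 FPKM in air.

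**Figure D4:**
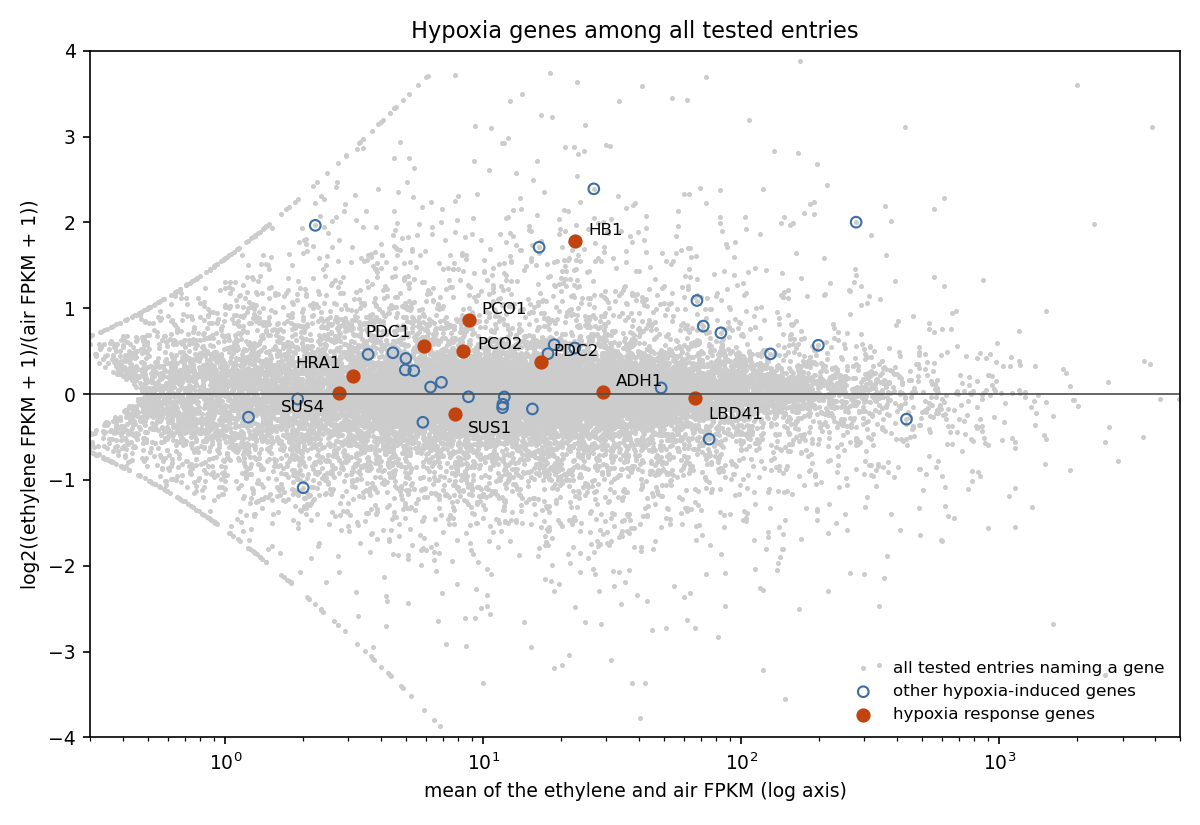
Change, as log2((ethylene FPKM + 1)/(air FPKM + 1)), against the mean of the ethylene and air FPKM on a log axis, for all tested entries that name a gene (grey), the 10 members (filled) and the other hypoxia-induced genes (open circles). HB1 lies well above the body of the cloud and PCO1 near its upper edge, while ADH1, SUS4 and the entry of LBD41 lie on the line of no change; 152 entries and 1 other hypoxia-induced gene fall outside the axes.

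Markers of abscisic acid and cold, other stress signals of the plant, had lower values in ethylene. Of 5 tested entries 3 were called lower (60%, against 6.5% of all tested entries called lower) and 0 higher. The summed level was 1242 FPKM in ethylene and 2967 FPKM in air. RAB18 was 345 FPKM in ethylene and 924 FPKM in air, and RD29B was 393 FPKM in ethylene and 833 FPKM in air. The entry of KIN1 and KIN2 was 278 FPKM in ethylene and 917 FPKM in air. RD29A, at 224 FPKM in ethylene and 291 FPKM in air, was not called. COR15A, a cold marker, hardly differed, at 1.29 FPKM in ethylene and 1.38 FPKM in air. The seed markers EM1 and EM6, which abscisic acid also controls, were among the 3 seed markers called lower. Whether these changes have a part in those of the members was not tested.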

How the data were processed

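RNA was sequenced from 2 ethylene and 2 air libraries, per the labels. The authors deposited 1 gene table with the columns of Cuffdiff, per the file headers: FPKM per condition, pooled over libraries, and p-value and q-value columns. The deposited test statistic, a score per entry, is also the authors'; 331 of its cells had become text. The submitters' processing notes name TopHat2 2.0.9, Cuffdiff 2.2.1 and TAIR10; annotation, parameters, strand setting and normalisation are not stated in any source used here. Depth per library is unknown, so no interval from counts is given. The labels do not say whether libraries came from separate plants, so any spread behind the authors' test may be technical. The table's own title names srt1 only; the labels were followed.

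Of 33538 entries, 21076 were tested and 20786 of those name a gene; 324 entries without a gene name, with 22.8% of all FPKM in ethylene and 24.0% in air, were left out, and 776 name several genes. An entry naming a locus alone was preferred, then the higher mean. The deposited q equals Benjamini-Hochberg adjustment to within 5.25e-07. Read as a normal quantile, the deposited p exceeded the statistic, with a median ratio of 1.43 in 19437 entries; the table does not show which scale was meant, so calls with a normal reference for the statistic are given beside the deposited ones. Intervals are 95% and normal, from the SE. Folds were recomputed from FPKM, with a pseudocount of 1 FPKM for list medians. The adjustment code was tested on simulated data.

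Sequences are RefSeq's on TAIR10.1. Of 31743 nuclear single-gene entries, 99.997% overlap the gene of that locus in this annotation, and 144 of 144 listed loci were found. Identity is over aligned coding bases. Named genes are the members and every gene of the ERF, N-degron, paralogue and side-branch lists. Of the hypoxia, glycolysis and starvation lists they are up to 8 called genes and the highest uncalled one. Of the other lists they are up to 3. Beyond this rule are the markers named while checking groups, the named seed markers, RD29A, COR15A, UKL3 and AT5G20820. The members and lists were chosen with earlier results of these data known, and the lists of related genes were written from general knowledge. The table holds 0 unused columns of per-sample values. Python 3.11.15, pandas 2.3.3, numpy 2.4.6, scipy 1.17.1, biopython 1.88 and matplotlib 3.10.9 were used.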

Additional observations from a re-analysis of the deposited data

How the results depend on the processing

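No paired analysis was possible because the table holds 1 pooled value per condition and no replicate numbers, and for the same reason no library could be left out. Division of the ethylene values by the median ratio of expressed entries (log2 0.010) kept the direction of all 10 members' log2 changes. Another pseudocount (0.1 or 0.01 FPKM) cannot change a direction, and with it each change moved by less than its SE. Each member is named in 1 entry only, so another choice of entry left every value as it was. Calls with another choice of entry likewise repeat the deposited q and could not change. Counting those, 38 of 40 recomputed member calls stayed on their side of the threshold. PCO1 left it with the normal reference (adjusted p 0.128) and PDC1 passed it when adjusted over entries at 1 FPKM or more (0.0486), giving 3 called members; the cause of the first was not tested, and the second follows from fewer entries in the adjustment. The normal reference called 1 member against 2, 5 other hypoxia-induced genes against 8 (NIP2;1 has no numeric statistic), and 1201 of the 20565 entries with a numeric statistic against 2347 of 20786. At q 0.01, 5 other hypoxia-induced genes and 1692 entries were called. Leaving out ETR2 and ACO1, chosen after seeing the data, left 6 of those hypoxia genes called at q 0.05 and 3 with the normal reference. Pooled FPKM without known depth limits how small a change of HRA1, SUS4 or HRE1 could be called.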

Other observations

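Glycolysis and starvation genes were also read. Of 26 genes of cytosolic glycolysis, the pathway that feeds fermentation, 1 was called higher and 1 lower by the deposited q, which is 7.69% against 11.3% of all tested entries, and 0 with the normal reference, against 5.84%; 3 had an unadjusted p of 0.05 or less in the authors' deposited table. MEE51, a subunit of the phosphofructokinase that uses pyrophosphate, was 45.5 FPKM in ethylene and 29.3 FPKM in air, 1.56-fold. CINV1, a cytosolic invertase that cleaves sucrose by the route that competes with sucrose synthase, was 88.3 FPKM in ethylene and 128 FPKM in air. GAPC1, the highest uncalled gene, was 749 FPKM in ethylene and 685 FPKM in air. Over the 26 genes the log2 changes had a median of 0.14. Of 9 genes raised by energy starvation or acting in its signalling, 1 was called (11.1%, against 11.3% of all tested entries), DIN2, a beta-glucosidase induced by darkness and sugar shortage, at 35.3 FPKM in ethylene and 15.6 FPKM in air, 2.26-fold. SEN1, the highest uncalled gene of that list, was 539 FPKM in ethylene and 551 FPKM in air.

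Of 25 entries within 3000 bases of a member, 15 were tested and 0 called by the deposited q. With 11.3% of all tested entries called, 0 calls among 15 does not set these neighbours apart. AT5G20820, which neighbours SUS1, was 35.1 FPKM in ethylene and 0.616 FPKM in air without a call (q 0.139 in the authors' deposited table); it was singled out after its values were seen. NIP2;1, an aquaporin-like channel induced by hypoxia, has 3 entries, and 1 of them was listed at 16518 FPKM in ethylene and at 0 in air without a call. Its other entries were 1.57 and 1.06 FPKM in ethylene and 3.61 and 0.531 FPKM in air. UKL3, a uridine kinase-like gene of the hypoxia list, lay just above the threshold, at q 0.0501 in the authors' deposited table; it too was chosen after its values were seen.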
